A study of Homo sapiens with 6 samples.

Results

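The annexins are cytosolic proteins that bind acidic phospholipids when calcium rises. Each has a conserved core of annexin repeats that holds the calcium sites, and a short or long amino-terminal head that differs between members and binds partner proteins, among them small S100 proteins. They are known for linking membranes to each other and to actin, for vesicle traffic and for sealing wounds of the plasma membrane, and they are abundant in most epithelial and mesenchymal cells, the lung included. ANXA5 protein is also the reagent of the Annexin V assay, in which it marks cells that expose phosphatidylserine.

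Here 8 annexin genes (ANXA1, ANXA2, ANXA3, ANXA4, ANXA5, ANXA6, ANXA7 and ANXA11), taken by their gene names, were followed in the RNA-seq table, and all 8 are among the 15897 genes listed. RNA was measured in 3 libraries labelled control, whose genotype label is wild type, and 3 labelled shSETD2. All 6 carry the label of H1650, an established lung adenocarcinoma cell line. SETD2, the target of the shRNA, encodes the methyltransferase that trimethylates histone H3 at lysine 36. The shSETD2 cells were stable lentiviral lines, but which shRNA construct each library carries, and whether the control cells carried a vector, is not given in the sources used here. Values are FPKM, fragments scaled to gene length and to the library's mapped total, so levels of different genes can be set side by side per length. The number of reads behind a value is unknown, and the precision is that of 3 libraries a group. Nothing says that the libraries of a group came from separate cultures, so p-values measure the spread between libraries, which may be technical. Values listed for a group follow the order of its libraries 1, 2 and 3.

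The groups also stood apart in genes that mark cell types. SETD2 itself gave 18, 10.2 and 17.6 FPKM in control against 8.97, 8.09 and 12.2 with shSETD2, which overlap (adjusted p = 0.0641, limma), so control and shSETD2 are used here as the libraries' labels. Of 12 markers of lung epithelium, 11 are not listed, and the only one listed, NKX2-1, was at 1.44 to 1.80 FPKM in control and listed at 0 in all shSETD2 libraries. Of 10 genes typical of embryonic kidney lines, 8 had a mean of 1 FPKM or more in control and 3 in shSETD2, where 6, LIN28B and NEFM among them, were listed at 0 in every library. Their summed level was 156.4 to 157.6 FPKM in control and 25.5 to 26.9 in shSETD2, although PAX2 and LHX1 were higher in shSETD2. The epithelial markers moved both ways. The keratin genes KRT7 and KRT8 rose, from means of 0.0208 to 81.9 and of 2.86 to 93.9 FPKM. CDH1, which encodes E-cadherin, fell from 1.27 to 0.0120 FPKM and the splicing factor gene ESRP2 from 1.93 to 0.0219, and EPCAM, under the filter on low values, was at 0.710 and 0.220. The 9 listed of 10 epithelial markers summed to 16.9 to 18.2 FPKM in control and 404.3 to 457.3 in shSETD2, where most of the sum came from keratin genes. Of the 6 tested, 4 were higher and 2 lower, beside 26.8% higher and 51.8% lower of all genes tested. KRT7 passed the filter only through shSETD2, and CDH1 and ESRP2 only through control, so the filter fixed their directions. Of 10 mesenchymal markers, 8 are listed, with sums of 96.7 to 111.2 FPKM in control and 170.0 to 180.3 in shSETD2. Among the 6 of them tested, 3 were higher and 2 lower, beside the same shares of all genes. Of the lower ones, COL1A1 passed the filter only through control and was bound to be lower. FN1 and VIM had the largest rises (log2 fold changes of 1.03 and 0.99), and COL1A1 and ZEB2 the largest falls (-1.57 and -0.85). Of 8 leukocyte markers only CD14 and CD68 are listed, at sums of 1.33 to 1.62 FPKM in control and 1.91 to 2.24 in shSETD2, and of 5 endothelial markers none is listed. The part of these differences in the annexin values was not tested, and in bulk RNA fewer cells of a type and less RNA per cell cannot be told apart.

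All 8 annexin genes rose in the shSETD2 libraries, from 1.32-fold for ANXA6 to 66.4-fold for ANXA1 as the ratio of mean FPKM. The groups were compared on log2(FPKM + 1) with limma over the 14068 genes whose FPKM averaged 0.5 or more, with Benjamini-Hochberg adjustment. All 8 passed an adjusted p under 0.05 toward higher expression, and none of the 8 passed toward lower expression, also unadjusted (0 genes) and with an ordinary linear model (0 genes). Among all genes tested, 26.8% were called higher and 51.8% lower with the FPKM as deposited, shares that depend on how the libraries are scaled (below). The median log2 fold change of the 8 was 1.15, against -0.29 for all genes tested. The groups did not overlap for any of the 8, shSETD2 being higher, which held for 27.9% of all genes tested, and an exact permutation test gave p = 0.1, the smallest that 3 libraries against 3 allow.

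**Figure D1:**
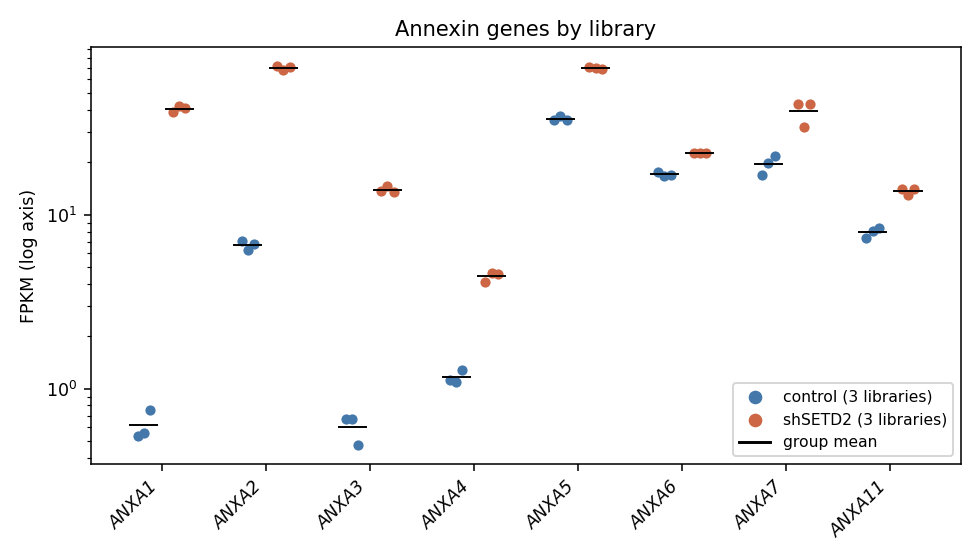
FPKM of the 8 annexin genes on a log axis, 1 point per library (blue, control; orange, shSETD2; black bar, group mean of 3). For each gene the orange points lie above the blue ones, with the widest gap for ANXA1 (means 0.614 and 40.7) and the narrowest for ANXA6 (means 17.1 and 22.6).

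The promoters of ANXA1, ANXA2 and ANXA3, which had the largest rises on the log2 scale, are shown with that of ANXA6, which had the smallest. Each is the 250 bases before the start given by RefSeq in GRCh38.p14, written 5′ to 3′ on the gene's strand, and capitals mark TATAAA and TGANTCA, a core of AP-1 sites, searched on both strands (the motifs do not overlap each other). RefSeq gives 12 starts for the 8 genes, and for ANXA6 the upstream one of 2 is shown.
ANXA1, chr9:73151615-73151864, plus strand: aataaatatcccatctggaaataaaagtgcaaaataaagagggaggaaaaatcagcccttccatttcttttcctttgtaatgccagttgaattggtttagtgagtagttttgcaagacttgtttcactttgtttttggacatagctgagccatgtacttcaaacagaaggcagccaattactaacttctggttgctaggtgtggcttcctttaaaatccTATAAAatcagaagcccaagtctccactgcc
ANXA2, chr15:60397987-60398236, minus strand: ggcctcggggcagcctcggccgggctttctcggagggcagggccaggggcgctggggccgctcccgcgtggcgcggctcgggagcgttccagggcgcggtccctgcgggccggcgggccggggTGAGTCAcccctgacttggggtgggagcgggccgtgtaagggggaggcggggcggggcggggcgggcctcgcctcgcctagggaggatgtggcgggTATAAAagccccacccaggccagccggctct
ANXA3, chr4:78551520-78551769, plus strand: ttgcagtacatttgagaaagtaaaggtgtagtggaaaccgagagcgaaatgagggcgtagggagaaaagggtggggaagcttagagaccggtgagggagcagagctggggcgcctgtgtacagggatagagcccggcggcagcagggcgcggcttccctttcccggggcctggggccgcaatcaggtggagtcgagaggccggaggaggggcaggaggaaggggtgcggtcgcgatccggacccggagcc
ANXA6, chr5:151157780-151158029, minus strand: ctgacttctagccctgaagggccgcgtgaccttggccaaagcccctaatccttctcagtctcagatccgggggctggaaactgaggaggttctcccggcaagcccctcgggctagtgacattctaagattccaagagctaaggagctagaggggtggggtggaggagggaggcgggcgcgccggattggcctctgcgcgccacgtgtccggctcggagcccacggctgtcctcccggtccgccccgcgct

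The promoters differed in base composition. That of ANXA1 has a GC content of 38.4% and 0 CpG, and only 10.1% of 35114 promoters have a lower GC content. That of ANXA2 is at 78.0% GC with 28 CpG, ANXA3 at 64.0% with 18, and ANXA6 at 65.6% with 19. ANXA1 and ANXA2 each hold a TATAAA that begins 31 bases before the start, and a window of ANXA11 holds one 61 bases before its start, so that 3 of the 12 annexin windows have it, against 10.7% of all promoters. TGANTCA was found once, in ANXA2, 127 bases before the start, and 6.57% of all promoters hold it. The letters GGGCGG, as in GC boxes, stood in 7 of the 12 annexin windows, against 42.6% of all promoters, and CCAAT in 4 of 12, against 32.0%. Such matches are descriptions of the letters only.

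The largest rise was that of ANXA1, the glucocorticoid-induced anti-inflammatory member once called lipocortin, which is also a substrate of the EGF receptor. ANXA1 (ENSG00000135046.13_3) is encoded at chr9:75766673-75785309 of GRCh37, plus strand, with 13 exons in its canonical transcript. Control gave 0.536, 0.556 and 0.75 FPKM, and shSETD2 gave 39.2, 42.2 and 40.8. It thus went from a level below all but 13.5% of listed genes to one above 95.4% of them. The log2 fold change was 4.69 (SE 0.067, adjusted p = 3.16e-08, limma), and 81 genes of 14068 had a larger one. The control level is low, so the pseudocount matters to the size, which was 5.85 with 0.1 and 6.05 with 0.01 added in place of 1.

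ANXA3 also rose from a low level. This member binds phospholipid like the others and is known from neutrophil granules and placenta. ANXA3 (ENSG00000138772.12_3) is at chr4:79472673-79531605, plus strand. Its values were 0.670, 0.665 and 0.473 FPKM with the control label, and 13.6, 14.7 and 13.5 FPKM with the shSETD2 label. The log2 fold change was 3.22 (SE 0.072, adjusted p = 1.35e-07, limma), or 4.33 and 4.52 with pseudocounts of 0.1 and 0.01. In control, ANXA1 and ANXA3 could not be ordered, since their libraries overlapped.

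ANXA2 gained more FPKM than any other of the 8. It forms a complex with S100A10 at the plasma membrane, where it binds plasminogen and tissue plasminogen activator. ANXA2 (ENSG00000182718.16_3) is at chr15:60639333-60695082, minus strand. Control gave 7.03, 6.27 and 6.80 FPKM and shSETD2 71.3, 67.7 and 70.4, so that the means differ by a ratio of 10.4. The log2 fold change was 3.20 (SE 0.051, adjusted p = 4.30e-08, limma). Of the FPKM that the 8 genes gained together, ANXA2 made up 34.1%, ANXA1 21.7% and ANXA5 18.3%. The processed pseudogene ANXA2P2 matches the ANXA2 transcript at 98.4% of 1020 bases, ANXA2P1 at 93.6% of 928 and ANXA2P3 at 91.4% of 1016. None of these pseudogenes is listed in the table, so how reads that match both were assigned is not known.

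ANXA4, a member of apical membranes in epithelia, was the lowest of the 8 in shSETD2. ANXA4 (ENSG00000196975.15_2, plus strand of chromosome 2, 69871557 to 70054232) measured 1.12, 1.09 and 1.28 FPKM under control and 4.09, 4.62 and 4.55 FPKM under shSETD2. Its log2 fold change was 1.32 (SE 0.067, adjusted p = 4.54e-06, limma). AAK1, on the opposite strand, overlaps the ANXA4 locus in the annotation, and whether the counting used strand is not given in the sources used here. AAK1 was at a mean of 4.34 FPKM in control and 5.19 in shSETD2, a log2 fold change of 0.21.

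The members that were already well expressed in control rose less. ANXA5, the phosphatidylserine-binding anticoagulant annexin (ENSG00000164111.14_2, minus strand of chromosome 4, 122589110 to 122618268), measured 34.9, 36.7 and 35.2 FPKM under control and 70.5, 69.6 and 68.4 FPKM under shSETD2. Its log2 fold change was 0.95 (SE 0.035, adjusted p = 1.15e-06, limma). ANXA6, whose core is duplicated and which acts at endosomes (ENSG00000197043.13_2, minus strand of chromosome 5, 150480273 to 150537443), has 26 exons in its canonical transcript, against 13 to 16 in the other 7 genes. Control gave 17.5, 16.8 and 17 FPKM and shSETD2 22.7, 22.5 and 22.6, the tightest values of the 8. Its log2 fold change of 0.38 was the smallest (SE 0.036, adjusted p = 8.86e-05, limma).

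ANXA7 and ANXA11 both lie on the long arm of chromosome 10 and have long amino-terminal heads that bind PDCD6, a calcium sensor also called ALG-2. ANXA7, known as synexin for its role in granule fusion (ENSG00000138279.15_3, minus strand, 75134859 to 75173834), measured 17, 19.7 and 21.8 FPKM under control and 43.3, 31.8 and 43.2 FPKM under shSETD2. The low shSETD2 library 2 made it the least even of the 8 in that group, with a coefficient of variation of 16.8%. Its log2 fold change was 0.97 (SE 0.14, adjusted p = 8.03e-04, limma), and 1.12 without shSETD2 library 2. ANXA11, which tethers RNA granules to lysosomes (ENSG00000122359.17_3, minus strand, 81910645 to 81965328), measured 7.35, 8.05 and 8.37 FPKM under control and 14, 13 and 14 FPKM under shSETD2. Its log2 fold change was 0.72 (SE 0.062, adjusted p = 5.36e-05, limma).

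**Figure D2:**
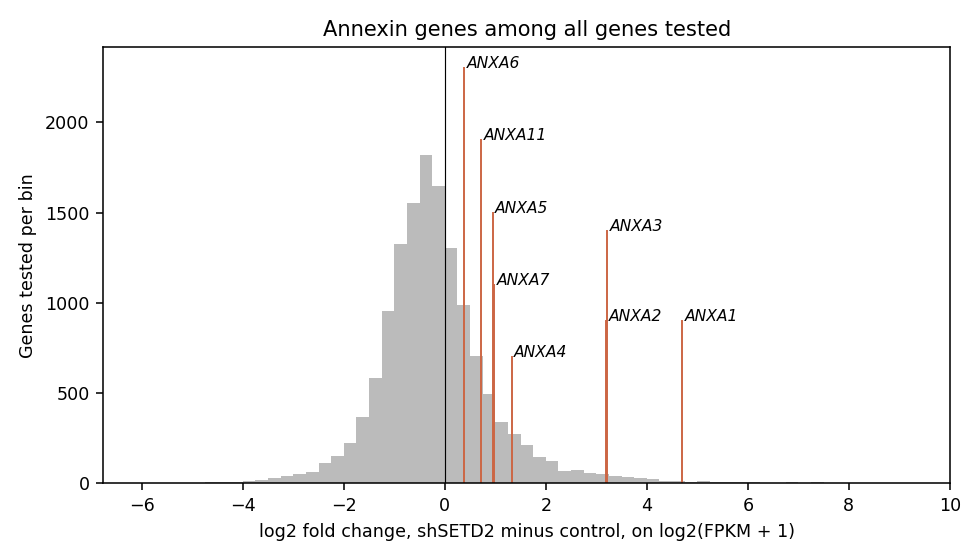
Number of genes per bin of log2 fold change (grey, 14068 genes tested), with a vertical line at the value of each annexin gene (line heights only separate the names). The 8 lines lie right of 0, from 0.38 for ANXA6 to 4.69 for ANXA1, while the median of all genes is -0.29.

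The order of the members differed between the groups. In control the order by mean FPKM was ANXA5, ANXA7, ANXA6, ANXA11, ANXA2, ANXA4, ANXA1 and ANXA3. Neighbours overlapped for ANXA7 with ANXA6 and for ANXA1 with ANXA3, and the other neighbours did not overlap. In shSETD2 the order was ANXA2, ANXA5, ANXA1, ANXA7, ANXA6, ANXA3, ANXA11 and ANXA4. There ANXA2 overlapped with ANXA5, ANXA1 with ANXA7 and ANXA3 with ANXA11.

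As a sum, the 8 genes reached 86.1, 89.8 and 91.8 FPKM under control and 278.8, 266.1 and 277.5 FPKM under shSETD2, a ratio of 3.07 between the means. ANXA5 made up 39.9% ± 1.32 (SD, n = 3) of this sum in control and 25.4% ± 0.765 in shSETD2, although its own FPKM was higher there. ANXA2 made up 7.52% ± 0.603 and 25.5% ± 0.103, and ANXA1 0.686% ± 0.114 and 14.9% ± 0.914. The share in shSETD2 minus that in control was -10.9 percentage points for ANXA6, -7.47 for ANXA7 and -3.89 for ANXA11. For each of the 8 shares an exact permutation test gave p = 0.1, the smallest it allows. These shares depend on each other, since they add up to the whole.

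**Figure D3:**
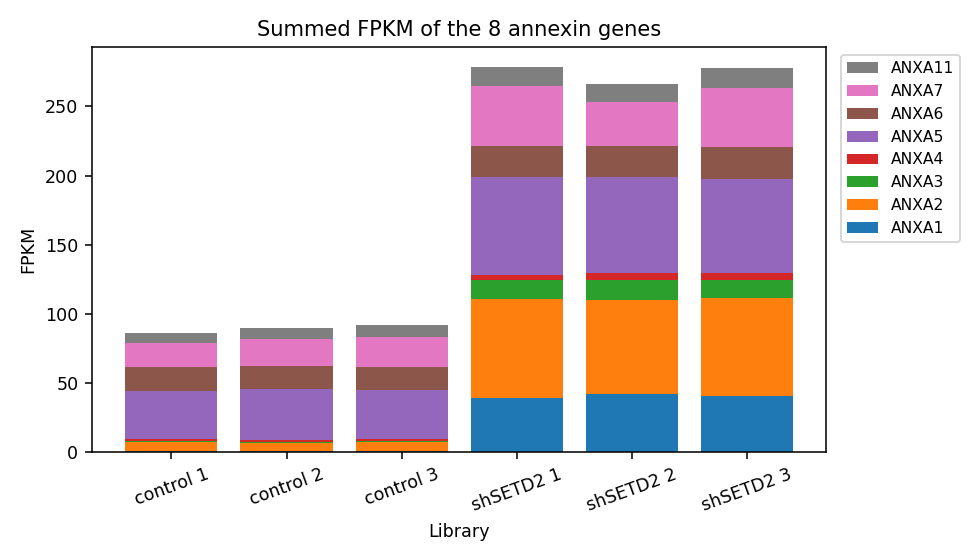
Summed FPKM of the 8 annexin genes in each library, with 1 colour per gene. The sum is between 86.1 and 91.8 in control and between 266.1 and 278.8 in shSETD2, where ANXA1, ANXA2 and ANXA3 make up a larger share.

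The size of the changes depended on how the libraries were scaled, but not their direction. With the FPKM as deposited, the median of all genes tested was shifted by -0.29, and relative to it the log2 fold changes of the 8 ran from 0.67 for ANXA6 to 4.99 for ANXA1. With quantile normalization the change of ANXA6 was 0.27 and that of ANXA5 was 0.68. With median ratio scaling, which brings the median of all genes to -0.03, they were 0.70 and 1.27. The calls over all 14068 genes tested depended on the scaling too. They numbered 3774 higher and 7283 lower as deposited, 4613 and 5953 with quantile normalization, and 5215 and 5505 with median ratio scaling.

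**Figure D4:**
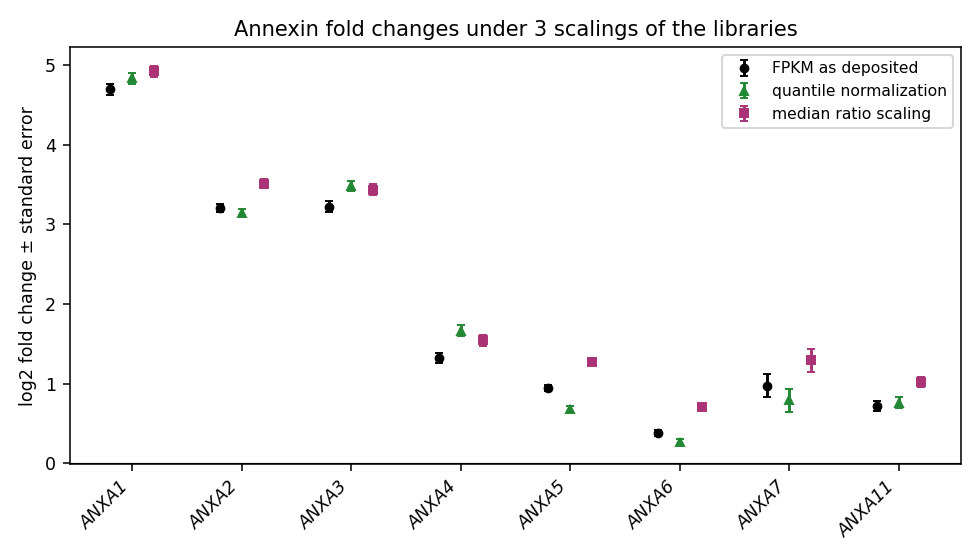
Log2 fold change of each annexin gene with its standard error (3 libraries a group) for unscaled FPKM, quantile-normalized FPKM and FPKM under median ratio scaling. The plotted values all lie above 0, and ANXA6 is the lowest under each scaling (0.38, 0.27 and 0.70).

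The other annexin genes were near the floor. ANXA8 was at 0.00723, 0 and 0.0104 FPKM in control and at 0.315, 0.259 and 0.354 in shSETD2. Its copies ANXA8L1 and ANXA8L2 match the ANXA8 transcript at 99.9% and 99.8% of 1721 bases, so reads cannot be assigned among them with certainty, and they did not exceed 0.238 FPKM. ANXA9 was at 0, 0.0380 and 0.0831 FPKM in control and listed at 0 in shSETD2. These 4 genes fell under the filter on low values and were not tested. ANXA10 and ANXA13 are not listed.

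The partners of the annexins were followed next. Of 13 genes that encode binding partners, receptors or ligands of the cell-surface complex, 9 are listed and 8 were tested, with 6 higher, 1 lower and 1 not called, where 26.8% of all genes tested were higher and 51.8% lower. The median log2 fold change was 1.82, against -0.29 for all genes. S100A6 and ANXA2R, both called higher, averaged under 0.5 FPKM in control and passed the filter only through their shSETD2 values. S100A10, the partner of ANXA2, was at 31.2, 29.9 and 34.2 FPKM in control and at 152.0, 179.0 and 177.0 in shSETD2, with a log2 fold change of 2.37 (adjusted p = 7.61e-07, limma). S100A11, the partner of ANXA1, was at 38.8, 44.2 and 43.5 FPKM in control and at 429.0, 405.0 and 427.0 in shSETD2. S100A6, which binds ANXA11 among others, was listed at 0, 0.457 and 0.213 FPKM in control and at 375.0, 343.0 and 384.0 in shSETD2. Each of these S100 genes thus lay above its control libraries in all 3 shSETD2 libraries. S100A4, another ligand of ANXA2, was at 0.383 to 0.668 FPKM in control and 0.338 to 0.524 in shSETD2 and was under the filter.

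AHNAK, a giant scaffold that binds the complex of ANXA2 and S100A10, rose from 11.2 ± 0.546 to 216.0 ± 4.59 FPKM (SD, n = 3), a ratio of 19.4. PDCD6 rose from 3.40 ± 0.602 to 9.53 ± 0.720 FPKM. Sorcin (SRI), a calcium-binding partner of ANXA7, was at 11 ± 0.899 and 10.6 ± 0.478 FPKM, which overlap (adjusted p = 0.551, limma). ANXA2R, named as an ANXA2 receptor, rose from 0.422 ± 0.202 to 1.68 ± 0.541 FPKM. PLAT, tissue plasminogen activator, was the only partner that fell, from 6.34 ± 0.759 to 3.08 ± 0.261 FPKM (adjusted p = 2.02e-04, limma). The formyl peptide receptors FPR1, FPR2 and FPR3, on which extracellular ANXA1 acts, and plasminogen (PLG) are not listed.

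Of 21 genes of plasma membrane repair, the process in which several annexins act, 20 were tested, with 13 higher, 2 lower and 5 not called, and a median log2 fold change of 1.04, beside 26.8% higher, 51.8% lower and a median of -0.29 over the whole table tested. Of the called genes, MYOF passed the filter only through shSETD2 and CAV3 only through control, so the filter fixed their directions. The ferlins, calcium-triggered membrane fusion proteins, led the rises. MYOF was at 0.232, 0.405 and 0.351 FPKM in control and at 51.7, 52.3 and 53.2 in shSETD2, and DYSF at 0.427, 0.552 and 0.687 and at 13.1, 12.5 and 13. The calpain subunits CAPN1, CAPN2 and CAPNS1 rose by log2 fold changes of 1.81, 1.95 and 1.15. Of the ESCRT genes, which shed wounded membrane, CHMP3, CHMP4B, VPS4A and VPS4B rose, while PDCD6IP, TSG101 and CHMP2A were not called. SYT7, a calcium sensor of lysosome exocytosis, fell by 0.30 on the log2 scale, which is close to the median of all genes. CAV3 was at 0.759, 1.06 and 1.22 FPKM in control and listed at 0 in shSETD2.

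**Figure D5:**
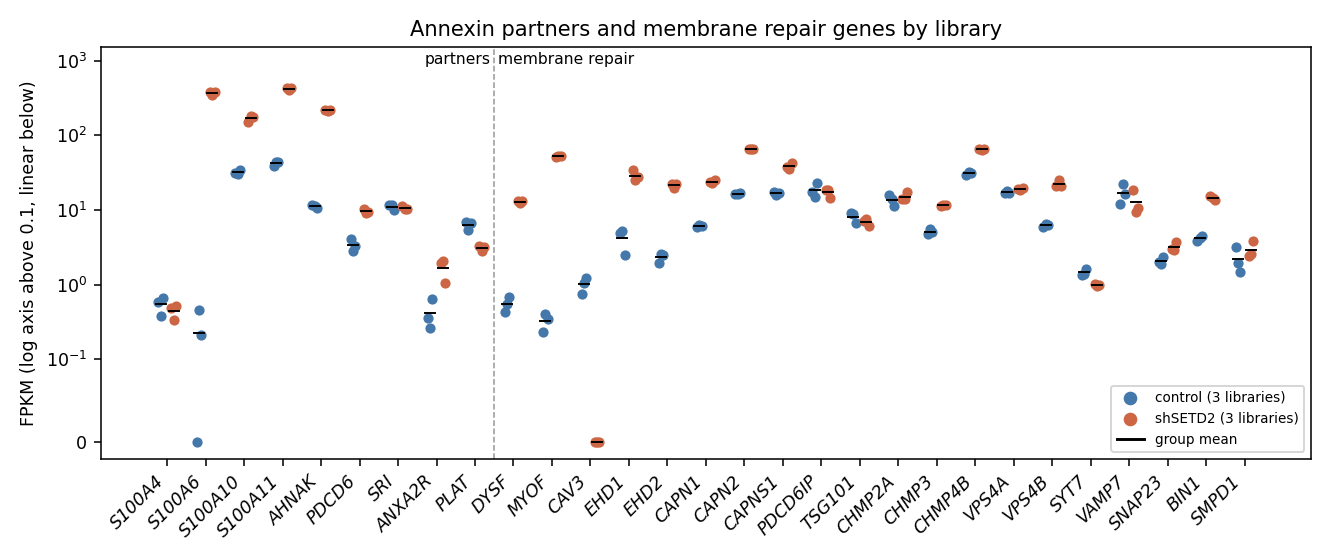
FPKM of the listed partners (left of the dashed line) and membrane repair genes (right) by library, on an axis that is logarithmic above 0.1 and linear below (blue, control; orange, shSETD2; black bar, mean of 3). S100A6, AHNAK, MYOF and DYSF show wide gaps, while SRI and PDCD6IP overlap.

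Lists of processes that annexins touch held called genes in both directions, as did all genes tested (26.8% higher and 51.8% lower, median -0.29). Of 13 eicosanoid synthesis genes, where ANXA1 is known as an inhibitor of phospholipase A2, 8 were tested, with 3 higher, 3 lower and 2 not called, which in so few genes is not far from those shares. Of the higher ones, PTGS1 and PTGES passed the filter only through shSETD2 and were bound to be higher there. PTGS2, the inducible cyclooxygenase, rose from 1.03 ± 0.193 to 13.4 ± 1.88 FPKM, and PTGS1 from 0.0340 ± 0.0159 to 1.77 ± 0.338. PTGES was also called higher (adjusted p = 0.0328, limma), but its groups overlap. It was at 0.232, 0.858 and 0.136 FPKM in control and at 4.14, 0.695 and 3.33 in shSETD2. PLA2G4A, the cytosolic phospholipase A2, fell from 8.48 ± 0.392 to 3.58 ± 0.292 FPKM, and PLA2G6 from 2.16 ± 0.162 to 0.706 ± 0.135. The median log2 fold change of this list was -0.05.

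Of 11 genes that move phosphatidylserine across the membrane, the lipid that ANXA5 binds, 5 were higher, 4 lower and 2 not called, with a median of -0.04, beside 26.8% higher, 51.8% lower and -0.29 for all genes tested. ANO6, a calcium-activated scramblase, rose from 10.2 ± 0.186 to 42.9 ± 1.78 FPKM, and the flippase gene ATP8B1 from 0.219 ± 0.103 to 3.55 ± 0.178. ATP8B1 passed the filter only through shSETD2 and was bound to be higher there. The flippase gene ATP8A1 fell from 6.18 ± 0.120 to 2.01 ± 0.197 FPKM, and XKR8, a caspase-activated scramblase, from 4.45 ± 0.572 to 1.95 ± 0.296.

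The glucocorticoid response list holds the receptor gene NR3C1 and genes that, like ANXA1, can be induced through this receptor. Of its 8 genes, 4 were higher, NR3C1 among them, and 4 lower, with a median log2 fold change of 0.11. The count of lower genes is about the 51.8% of all genes tested (26.8% were higher). ZFP36, an mRNA decay factor, was at 1.07 to 2.42 FPKM in control and 13.7 to 43.6 in shSETD2, and the kinase gene SGK1 rose from 0.985 ± 0.0848 to 8.12 ± 0.277. TSC22D3, which encodes GILZ, fell from 37.4 ± 3.75 to 0.839 ± 0.118 FPKM, and KLF9 from 17.9 ± 0.526 to 2.74 ± 0.386. NR3C1, which is in the count of higher genes, had a log2 fold change of 0.61.

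The genes beside the annexins on their chromosomes were compared as well, taking the 2 nearest tested genes on each side. Of these 32 neighbours, 8 were higher, 22 lower and 2 not called, with a median log2 fold change of -0.69. FOXB1, RORA, FRAS1, QRFPR, NDNF, GPX3 and CFAP70 passed the filter only through control and were bound to be lower. Among all genes tested 26.8% were higher and 51.8% lower, with a median of -0.29. The share of higher neighbours is thus about that of genes in general. The share of lower neighbours was larger than that of all genes, and the median of the neighbours was lower, which was not tested. All 4 neighbours of ANXA3 (FRAS1, MRPL1, BMP2K and PAQR3) and all 4 of ANXA5 (QRFPR, NDNF, EXOSC9 and CCNA2) were lower, the direction of 51.8% of all genes tested, and these members are named because their neighbours all were. Of these neighbours, FRAS1, QRFPR and NDNF are among the genes that the filter bound to be lower. The change of BMP2K, -0.23, was smaller than the median shift of all genes, -0.29. FRAS1, an extracellular matrix gene 7.25 kb from ANXA3, went from a mean of 5.39 to 0.00537 FPKM.

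The 5 genes closest to ANXA1, by Euclidean distance of log2(FPKM + 1) over the 6 libraries, were NUAK2, PHLDA1, ESAM, ADGRG6 and STC1, at distances of 0.369 to 0.568. NUAK2, which encodes an AMPK-related kinase, was at 0.729 ± 0.193 FPKM in control and 46.2 ± 1.40 in shSETD2 (SD, n = 3). STC1, which encodes the hormone stanniocalcin, was at 0.502 ± 0.0786 and 33.1 ± 0.561 FPKM.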

How the data were processed

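RNA-seq libraries of cells labelled H1650, 3 control and 3 shSETD2, were grouped by their titles. The kit marks strand, per the labels, but whether the counting used strand is not given in the sources used here. Reads were mapped to hg19 (GRCh37) with Hisat2 and genes quantified with Ballgown by the authors, who deposited FPKM per gene and library. Neither tool versions nor how the listed genes were selected are given in the sources used here. A second deposited table adds the authors' own comparison of the groups (fold changes, p-values and q-values) and was not used.

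FPKM were tested as log2(FPKM + 1) for genes with a mean of at least 0.5, using limma 3.58.1 with an intensity trend in R 4.3.3 adjusting p-values by Benjamini-Hochberg across the 14068 genes that passed, and genes under 0.05 were called. Fold changes on this scale understate those of low genes. The filter takes the mean over all 6 libraries, so a gene can pass it through 1 group alone and is then bound to be higher there. In the partner and process lists S100A6, ANXA2R, MYOF, PTGS1, PTGES and ATP8B1 passed through shSETD2 alone, and CAV3 through control alone. Of the epithelial and mesenchymal markers, KRT7 passed through shSETD2 alone, and CDH1, ESRP2 and COL1A1 through control alone. Of the neighbours, FOXB1, RORA, FRAS1, QRFPR, NDNF, GPX3 and CFAP70 passed through control alone. The fit was also run on simulated data, with few changed genes in either direction and normal noise. The real table has many more called genes, so that run checks the code and not the calls made here. Exact permutation tests are two-sided, with scipy 1.17.1. Gene positions are those of the deposited table (GRCh37), and exons and overlaps come from GENCODE for that build. Promoters come from RefSeq (GRCh38.p14) and matched all 8 members. Transcripts were aligned with blastn of BLAST+ 2.17.0 (word size 11). Marker and pathway lists were written by hand. The members and lists were chosen with earlier results of these data known. Named were all members, all listed partners and other annexin genes, the 2 called genes with the largest rise and the 2 with the largest fall of each other list, the neighbours where all 4 went against a member, and the 5 genes most like the member with the largest change. EPCAM, CAPN1, CAPN2, CAPNS1, the ESCRT genes, PTGES, NR3C1, AAK1, FOXB1, RORA, GPX3 and CFAP70 were named after their values were seen.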

Additional observations from a re-analysis of the deposited data

How the results depend on the processing

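The 8 annexin genes were fitted under up to 16 alternatives each (pseudocounts of 0.1 and 0.01, testing every listed gene or those averaging 5 FPKM or more, scaling by median ratio, by quantiles or by the upper quartile, a limma fit lacking the trend, ordinary least squares, a replicate block, and each library left out in turn). All 127 resulting fold changes kept their direction and their side of the threshold, with adjusted p-values up to 8.66e-03, for ANXA7 with ordinary least squares. ANXA4 was not tested at a mean FPKM of at least 5. Leaving out 1 library gave 4.66 to 4.75 for ANXA1 and 0.88 to 1.12 for ANXA7 (log2 fold change). With the replicate block all 8 members were higher. Same-numbered libraries did not deviate together (Pearson's r across genes of -0.02, 0.02 and -0.01). These correlations cannot show what the numbers stand for, which is not given in the sources used here.

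Of 192 counts of called genes under alternatives, 184 stayed within 1.5 times the value given. With a mean FPKM of at least 5, 0 partners and 0 membrane repair genes were lower in limma (0 and 0 at an unadjusted p under 0.05), 1 eicosanoid gene was higher, and 3 phosphatidylserine genes were higher and 2 lower; fewer genes were tested there. With quantile normalization and with median ratio scaling 1 membrane repair gene was lower, and with median ratio scaling 2 phosphatidylserine genes were lower. Over all 14068 genes tested, 5953 were lower with quantile normalization and 5505 with median ratio scaling, against 7283 with the FPKM as deposited. The cause of the smaller counts was not tested. The ratio of summed annexin FPKM was 2.74 after quantile normalization and 3.88 after median ratio scaling. Read counts were not analysed here, so the limit that depth sets is unknown.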
